A study of Rattus norvegicus with 30 samples.

Results

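The genes Lpl, Cd36, Fabp4, Fabp3, Lipe and G0s2, which bring fatty acids into the heart muscle cell, carry them inside it or govern their release from stored fat, were followed through an experiment on preconditioning of the rat heart. They were taken as every probe set whose only gene symbol in the platform annotation is one of these names, which gave 6 of 4736 genes and 10 of 8799 probe sets: 3 for Lpl, 2 for Cd36, 2 for Lipe and 1 each for Fabp4, Fabp3 and G0s2. Probe sets of a gene are numbered by brightness. They are readings of the same gene and not independent of each other. The genes were selected on measured values, the differences between ischaemic and control hearts on these arrays, so that comparison is described here without a test. Other comparisons with control or ischaemic hearts share arrays with it.

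Total RNA of the left ventricle was measured on 30 arrays, 5 biological replicates in each of 6 groups, and each array gives 1 intensity per probe set. The groups, in the spelling of the labels, are control (CTL), ischemia (ISCH), ischemic preconditioning (IPC), anesthetic-preconditioning (APC), and a trigger group for each preconditioning protocol, named IPC_TRI and APC_TRI. Preconditioning is a brief stimulus, here short ischaemia or an anaesthetic, that makes the heart withstand a later, longer ischaemia. As the study's design is understood, the trigger hearts received the stimulus alone and the IPC and APC hearts the stimulus and then the ischaemia of ISCH, which the labels do not spell out. The sources used here give no strain, age, agent, dose or time, and all groups are hearts of one species with no genetic change named.

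A working heart burns mostly fatty acids. Lipoprotein lipase (Lpl), held on the capillary wall, frees fatty acids from circulating triglyceride; Cd36 is the membrane protein through which many of them enter endothelium and muscle cells. Inside, fatty acid binding proteins carry them: Fabp3 is the heart muscle form, and Fabp4 the form of fat cells, capillary endothelium and macrophages. Stored triglyceride is broken down by a chain of lipases that includes hormone-sensitive lipase (Lipe), and G0s2 is a small protein that inhibits the first of them.

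Fabp4 and G0s2 were the members that moved most. Both were higher in the hearts of the full IPC and APC protocols than in those of their triggers and than in CTL hearts. The CTL arrays were part of the selection, and G0s2 entered the test through the groups in which it was high. These differences are therefore not independent of how the genes were chosen and filtered. Fabp4 averaged 741 and 782 in the IPC and APC hearts and 136 and 44.9 in those of their triggers, and G0s2 286 and 190 against 72.7 in each trigger. The sizes of the folds depend on the constant added to these low readings and are given with it. Cd36 and Lpl had calls below control in trigger hearts: Cd36 was 2.27-fold to 3.02-fold lower in IPC_TRI than in CTL hearts. Lipe passed the test in none of the 11 comparisons tested. The plot of single arrays shows these levels.

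**Figure D1:**
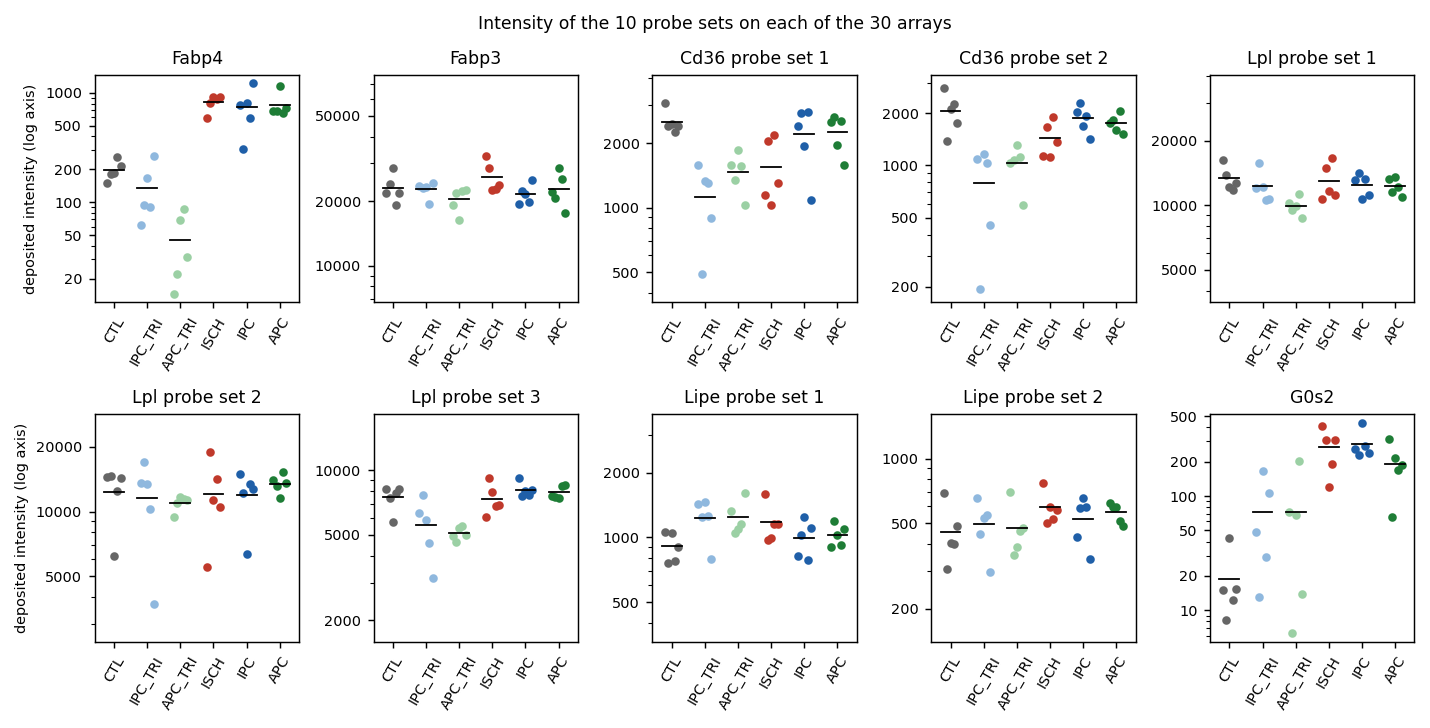
Deposited intensity (log axis) of the 10 probe sets on each array, with 1 point per array, 5 per group, and a line at the group mean. Fabp4 lay between 306.6 and 1229.4 in the ISCH, IPC and APC hearts and between 14.6 and 267.4 in the other 3 groups, while Fabp3, Lpl and Lipe differed far less between groups.

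The fit behind these values ran on log2(intensity + 16) after quantile normalization, over the 5244 probe sets with the highest means, with limma and Benjamini-Hochberg adjusted p-values over all of them; a probe set is called at an adjusted p under 0.05. Differences are given on that log2 scale with their standard error (SE), and folds are 2 to that power. All 10 member probe sets passed the filter on low values, but G0s2 did so through its high groups: its mean lay below the filter's level in CTL, IPC_TRI and APC_TRI hearts, and that of Fabp4 in APC_TRI hearts. A probe set that enters in this way had to be high somewhere, so differences from the low groups are not support by their number. Medians of the arrays ran from 114.6 to 189.2, and the mean correlation of an array with the rest of its own group averaged 0.961 in CTL and 0.884 in IPC_TRI hearts. The log2 ratio of 3′ to 5′ signal of beta-actin, which reads RNA integrity, averaged -0.46 in IPC_TRI and -0.36 in APC_TRI hearts, against 0.08 in CTL, 0.32 in ISCH, 0.34 in IPC and 0.04 in APC hearts. The same ratio of Gapdh went the other way, with 0.13 in IPC_TRI and 0.19 in APC_TRI hearts against -0.06 in CTL, -0.0022 in ISCH, -0.02 in IPC and 0.01 in APC hearts. A negative ratio means less 3′ than 5′ signal. The part of RNA integrity in the results was not tested. Fits with the beta-actin ratio as a covariate are given for the member calls they end, and for the other lipid genes together. Because that ratio differed between the triggers and the other groups, these fits also take up part of the group differences. They cannot tell the ratio from the group. All 15 measured ventricular cardiomyocyte markers passed the filter, with Myh6, the main myosin of the rat ventricle and also an atrial gene, at group means from 28490 to 35590. The sum of 3 atrial markers (Myl7, Myl4 and Nppa) reached 12878.8 on 1 APC_TRI array, against at most 3797.9 on any array of another group, and its part in the APC_TRI values was not tested.

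Lpl, the enzyme at the capillary wall, was read by 3 probe sets. On Lpl probe set 3 the CTL arrays read 8190.3, 7455.2, 5747.7, 7839.7 and 8228.4. The IPC_TRI arrays read 6350.9, 7693.5, 5892.3, 4612.2 and 3159.8, and the APC_TRI arrays 4919.9, 4616.5, 5387.6, 5535.3 and 4977.9. Every APC_TRI array was below every CTL array, while the IPC_TRI arrays overlapped them, with replicate 5 the lowest of all. The IPC arrays read 9250.7, 7559.5, 8038.5, 7699.3 and 8098.7. The APC arrays read 7634.0, 7486.1, 7417.7, 8429.1 and 8505.7, and the ISCH arrays 6066.9, 9227.8, 7923.1, 6848.1 and 6886.0. The IPC and APC arrays lay close together and overlapped those of the CTL and ISCH hearts. The highest ISCH array, at 9227.8, was above every APC array.

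Lpl probe set 3 was thus higher in IPC than in IPC_TRI hearts by 0.61 ± 0.14 (SE, limma adjusted p = 0.0028) and higher in APC than in APC_TRI hearts by 0.62 ± 0.14 (adjusted p = 0.0027). Against CTL it was lower in both triggers, by -0.53 ± 0.14 in IPC_TRI (adjusted p = 0.013) and by -0.57 ± 0.14 in APC_TRI hearts (adjusted p = 0.012). Lpl probe set 1, which averaged 13329 ± 1807 (SD, n = 5) in CTL and 9938 ± 968 in APC_TRI hearts, was lower in APC_TRI hearts by -0.59 ± 0.12 (adjusted p = 0.0031) and higher in APC than in APC_TRI hearts by 0.36 ± 0.12 (adjusted p = 0.044). Lpl probe set 2 spread widely, from 3715.2 to 16985.2 within IPC_TRI, and passed in no comparison. The 3 Lpl probe sets had the same sign in each of these 4 comparisons, with values from 0.14 to 0.61 in IPC against IPC_TRI and from 0.33 to 0.62 in APC against APC_TRI.

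With the beta-actin ratio in the fit Lpl probe set 3 differed by 0.22 between IPC and IPC_TRI (adjusted p = 0.51), by -0.26 between IPC_TRI and CTL (adjusted p = 0.28) and by -0.36 between APC_TRI and CTL hearts (adjusted p = 0.14). With only the compared groups in the fit its adjusted p was 0.053 in IPC against IPC_TRI and 0.13 in IPC_TRI against CTL hearts. Without IPC_TRI replicate 5 it was lower in IPC_TRI than in CTL hearts by -0.38 (adjusted p = 0.054). The call of Lpl probe set 1 in APC against APC_TRI was lost when any 1 of 9 arrays was left out: CTL replicate 5, IPC replicate 1, APC replicates 1, 3 and 5 and APC_TRI replicates 1, 2, 3 and 5, with values from 0.30 to 0.38. It was also lost under 5 of 12 alternative settings: without the filter (adjusted p = 0.068), as deposited (0.12), with medians centred (0.087), with the spike signal in the fit (0.067) and with the beta-actin ratio in it (0.27, adjusted p = 0.21). Of the Lpl calls only that of probe set 3 in APC against APC_TRI hearts held under all 12 settings and without any 1 array. Against CTL, in APC_TRI hearts, probe set 1 was not past the threshold as deposited (adjusted p = 0.051) or with medians centred (0.068), and probe set 3 with medians centred (0.059). Expression in a piece of ventricle also cannot tell fewer cells of a type from less RNA per cell, for Lpl as for the genes that follow.

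Cd36, the fatty acid translocase, had 2 probe sets of its own. On Cd36 probe set 1 the CTL arrays read 3069.8, 2394.4, 2460.4, 2242.6 and 2390.6. The IPC_TRI arrays read 1587.6, 492.1, 1328.3, 1307.3 and 893.5, and the APC_TRI arrays 1579.0, 1342.5, 1848.0, 1560.4 and 1030.8. No array of either trigger reached the lowest control. The IPC arrays read 2391.7, 2758.4, 1946.2, 2804.6 and 1086.7. The APC arrays read 2501.2, 2658.8, 1967.6, 2526.7 and 1587.4, and the ISCH arrays 1147.6, 2046.0, 1028.7, 2191.7 and 1296.6. In the full protocols all but 1 IPC and 1 APC array lay above every trigger array, and in ISCH hearts the arrays split between levels like those of the triggers and levels near the controls.

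Cd36 fell in the ischaemic trigger. IPC_TRI hearts were below CTL hearts by -1.18 ± 0.27 on Cd36 probe set 1 (limma adjusted p = 0.0036) and by -1.59 ± 0.32 on probe set 2 (adjusted p = 0.0014), whose IPC_TRI arrays ran from 195.7 to 1169.5 against 1380.8 to 2782.6 in CTL hearts. IPC hearts were above IPC_TRI hearts by 0.92 ± 0.27 (adjusted p = 0.013) and 1.48 ± 0.32 (adjusted p = 0.0014). In the anaesthetic trigger the values pointed the same way and did not pass: -0.72 ± 0.27 (adjusted p = 0.080) and -0.97 ± 0.32 (adjusted p = 0.054) against CTL, with no overlap between arrays on either probe set, and 0.54 ± 0.27 and 0.76 ± 0.32 for APC over APC_TRI (adjusted p = 0.15 and 0.10). On probe set 2 the comparison of APC_TRI with CTL passed under 8 of 12 alternative settings, with adjusted p from 0.0053 to 0.10. The Cd36 fall was not shown to differ between the triggers: IPC_TRI minus APC_TRI was -0.46 ± 0.27 (adjusted p = 0.44) and -0.62 ± 0.32 (adjusted p = 0.37).

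IPC_TRI replicate 2 was the lowest array on both Cd36 probe sets. Without it Cd36 probe set 1 was higher in IPC than in IPC_TRI hearts by 0.66, with an adjusted p of 0.051, and with the beta-actin ratio in the fit that difference was 0.98 with an adjusted p of 0.13. With only the compared groups in the fit its adjusted p was 0.088, and that of probe set 2 in IPC_TRI against CTL hearts was 0.056. A further 5 probe sets carry the symbols of both Cd36 and Cd36l1, its neighbour on the chromosome in the RefSeq order of genes, and were not counted as members because they cannot be given to 1 gene. All 5 were higher in IPC than in IPC_TRI hearts, by 0.71 to 1.62, and 4 of the 5 were lower in IPC_TRI than in CTL hearts, where all 5 ranged from -1.29 to -0.15.

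The promoters of Cd36 and G0s2 are shown because these genes were higher in IPC than in IPC_TRI hearts together with Fabp4 and Lpl; RefSeq's table for build GRCr8 held a promoter for 3 of the 6 genes, Cd36, G0s2 and Fabp3. The 250 bases before the Cd36 start lie on the plus strand at chr4:18246332-18246581, and those of G0s2 on the minus strand at chr13:107335949-107336198. Capitals mark the letters of 10 searched motifs, on either strand.
Cd36: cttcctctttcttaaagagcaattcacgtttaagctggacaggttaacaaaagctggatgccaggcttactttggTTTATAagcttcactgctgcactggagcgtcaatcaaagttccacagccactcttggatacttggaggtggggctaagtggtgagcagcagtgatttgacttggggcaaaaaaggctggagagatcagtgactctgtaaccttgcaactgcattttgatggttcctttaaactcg
G0s2: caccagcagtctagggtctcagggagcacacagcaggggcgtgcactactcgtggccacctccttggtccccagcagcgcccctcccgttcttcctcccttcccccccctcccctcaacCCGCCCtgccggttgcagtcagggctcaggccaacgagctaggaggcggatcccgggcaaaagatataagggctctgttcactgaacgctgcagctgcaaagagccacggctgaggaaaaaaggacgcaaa

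The Cd36 window held 1 match, a TATAAA on the opposite strand 175 to 170 bases before the start, which 12.9% of 33469 promoter windows of the same length hold. The G0s2 window held 1 GGGCGG on the opposite strand at 131 to 126 bases before the start, found in 30.5% of windows. Neither held the DR1 element read by the PPAR fatty acid receptors (0.0508% of windows), nor its single site AGGTCA (14.1%), the heat shock element GAANNTTC (7.23%), TGANTCA (6.34%), CACGTG (5.59%), TTNCGNAA (2.13%), CCAAT (34.0%) or CACCC (49.2%). The single site lies within the DR1 element. The Cd36 window was 45.6% G and C and that of G0s2 62.8%, against a median of 51.2% over all windows.

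Fabp4, the fatty acid binding protein of fat cells and capillary endothelium, read as follows. On the CTL arrays it read 148.7, 181.0, 184.1, 259.6 and 216.6. The IPC_TRI arrays read 62.2, 95, 166.0, 90.0 and 267.4. The APC_TRI arrays read 14.6, 22, 69.4, 86.9 and 31.8. All APC_TRI arrays were thus below all controls, while 2 of the IPC_TRI arrays, replicates 3 and 5, lay at control levels. The IPC arrays read 769.6, 306.6, 814.9, 584.6 and 1229.4. The APC arrays read 680.7, 686.0, 1162.9, 650.9 and 730.4, and the ISCH arrays 585.9, 813.3, 925.0, 884.3 and 927.0. Each array of these 3 groups was above each array of CTL, IPC_TRI and APC_TRI, and the 3 overlapped one another.

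Fabp4 was higher in IPC than in IPC_TRI hearts by 2.54 ± 0.34 (SE, limma adjusted p = 3.3e-06) and higher in APC than in APC_TRI hearts by 3.91 ± 0.34 (adjusted p = 1.1e-09). The groups compared here hold no ISCH or CTL array. Those arrays did enter the normalization, the filter and the estimate of spread shared by all groups. The differences, SEs and adjusted p-values are therefore not independent of the arrays on which the genes were selected. With 1 or 64 added in place of 16 the difference between APC and APC_TRI hearts was 4.47 or 3.01. The CTL arrays that follow were part of the comparison on which the genes were selected. Against CTL, Fabp4 rose by 1.70 ± 0.34 in IPC (adjusted p = 0.0015) and by 1.87 ± 0.34 in APC hearts (adjusted p = 3.9e-04), and it fell by -2.04 ± 0.34 in APC_TRI hearts (adjusted p = 3.8e-04). In IPC_TRI hearts it was at -0.84 ± 0.34 against CTL and did not pass (adjusted p = 0.089); without IPC_TRI replicate 5 or replicate 3 it did. All 5 Fabp4 calls were kept under each alternative setting and with each array left out.

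Between IPC_TRI and APC_TRI hearts Fabp4 differed by 1.2 ± 0.34 (95% interval 0.49 to 1.90) that did not pass over all probe sets (limma adjusted p = 0.099). Without IPC_TRI replicate 1 it passed, with an adjusted p of 0.036. The step from trigger to full protocol was smaller in the ischaemic than in the anaesthetic arm by -1.36 ± 0.49 (interval -2.36 to -0.37), with an adjusted p of 0.46 for that difference. Fabp4 in the full protocols differed by -0.17 (interval -0.87 to 0.54) between IPC and APC hearts.

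Because Fabp4 is made by fat cells, endothelium and macrophages, markers of these cells were read on the same arrays. Of 18 adipocyte markers other than members, 14 were on the array and 8 passed the filter; none read 0 on any array. Their summed intensity ran from 7044.4 to 9530.0 in APC_TRI and from 6795.5 to 9039.1 in APC hearts, and from 6425.2 to 7647.9 in IPC_TRI and 6191.7 to 8117.2 in IPC hearts. The sum rests mostly on Slc2a4 and Lep, of which Slc2a4, the insulin-responsive glucose transporter, is also a muscle gene. Lep had group means from 1493 to 1761, and whether its probe set reads fat cells here was not tested. Plin1, which coats the fat cell's droplet, had group means from 58.6 to 102 and Cfd, a secreted fat cell protease, from 37.5 to 109, and neither passed the filter. Of these 8 markers 1 was higher and 0 lower in APC than in APC_TRI hearts, and 1 higher and 1 lower in IPC than in IPC_TRI hearts. Over all probe sets 17.7% and 23.4% were called in these comparisons. The sums overlapped between each trigger and its full protocol.

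Endothelial markers went both ways. The sum of 13 endothelial markers ran from 4902.5 to 6137.4 in APC and from 6979.5 to 9775.4 in APC_TRI hearts, and from 5438.6 to 6796.7 in IPC against 6224.6 to 10075.9 in IPC_TRI hearts. Of the 12 past the filter 3 were higher and 3 lower in APC than in APC_TRI hearts, and 1 higher and 2 lower in IPC than in IPC_TRI hearts. None read 0. Over all probe sets 17.7% and 23.4% were called in these comparisons. Between APC and APC_TRI hearts the 12 had a median difference of 0.09, with 6 above and 6 below 0. The lower sum in APC hearts went with Selp, an adhesion protein of activated endothelium, at 519 against 1944, and Cav1 at 1497 against 2588, while Egfl7, a secreted endothelial protein, stood at 1.92 and Edn1, the endothelin precursor, at 1.83. The sum of 13 myeloid markers overlapped in all groups, from 4700.8 to 7616.8 in ISCH and 5322.4 to 6409.5 in APC hearts, and 1 of 7 was higher and 1 lower in APC than in APC_TRI hearts. Csf1r, the macrophage growth factor receptor, had group means from 11.3 to 50.5. Summed intensities of markers of other cells also differed between these groups. The sum of 13 fibroblast markers ran from 39922 to 56244 in APC and from 61127 to 68629 in APC_TRI hearts. It ran from 76830 to 99330 in ISCH against 47962 to 56841 in CTL hearts. Most of the gap between APC and APC_TRI hearts lies in Dcn, with means of 16920 and 32380. Of the 11 past the filter 7 lay above 0 and 4 below in APC over APC_TRI hearts, with a median of 0.05. Of these 1 was called higher and 2 lower. The sum of 7 smooth muscle markers ran from 11960 to 14320 in APC and 14469 to 23182 in APC_TRI hearts. In the ischaemic arm it ran from 11298 to 13924 in IPC and 15158 to 22728 in IPC_TRI hearts. This sum rests mostly on Des, with means of 11900 in APC, 17620 in APC_TRI, 10420 in IPC and 16850 in IPC_TRI hearts. It therefore mostly follows Des and not the list as a whole. After quantile normalization Des stood at -0.59 in IPC over IPC_TRI and at -0.47 in APC over APC_TRI hearts. Of the 6 past the filter 4 lay above 0 in IPC over IPC_TRI hearts, with a median of 0.21, and 1 was called lower. In APC over APC_TRI hearts 1 lay above 0, with a median of -0.29, and 3 were called lower. The sum of 15 ventricular markers, on the deposited intensities, was also higher in each trigger than in its full protocol, without overlap. After quantile normalization their median difference was -0.11 in IPC against IPC_TRI and -0.07 in APC against APC_TRI hearts. In the first 1 was called higher and 2 lower, and in the second 1 higher and 1 lower. The part of any of these cells in the Fabp4 values was not tested.

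Fabp3, the heart muscle form, is the most abundant binding protein of the heart muscle cell. On the APC arrays it read 21934.2, 20753.7, 28419.8, 25269.1 and 17584.8, and on the APC_TRI arrays 19120.7, 21878.7, 16258.2, 22349.0 and 22512.3, which overlap. The CTL arrays read 21913.0, 24017.3, 28563.6, 19259.8 and 21741.8. After quantile normalization Fabp3 was higher in APC than in APC_TRI hearts by 0.33 ± 0.11 (limma adjusted p = 0.043) and lower in APC_TRI than in CTL hearts by -0.37 ± 0.11 (adjusted p = 0.035). As deposited, without that step, the differences were 0.15 (adjusted p = 0.49) and -0.18 (adjusted p = 0.46). Between IPC and IPC_TRI hearts Fabp3 differed by 0.20 and, as deposited, by -0.07, so its direction there turned with the scaling.

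The Fabp3 calls also rested on single arrays. The difference between APC and APC_TRI hearts was not past the threshold without APC replicate 1, 3 or 4 or APC_TRI replicate 1, 2 or 3, with values from 0.23 to 0.34. That between APC_TRI and CTL hearts was not past it without CTL replicate 1, 2, 3 or 4 or APC_TRI replicate 1, 2 or 3, with values from -0.39 to -0.30.

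Lipe, hormone-sensitive lipase, passed in no comparison. Lipe probe set 1 read 1057.4, 762.4, 1044.5, 775.4 and 903.1 on the CTL arrays, 1429.2, 1239.1, 1464.8, 1252.8 and 791.0 on the IPC_TRI arrays, and 1321.6, 1048.9, 1094.4, 1158.2 and 1617.4 on the APC_TRI arrays. The trigger arrays lay above most controls, save IPC_TRI replicate 5, at 0.46 ± 0.18 in IPC_TRI (limma adjusted p = 0.072) and 0.49 ± 0.18 in APC_TRI hearts (adjusted p = 0.073). Without IPC_TRI replicate 5 both passed, with adjusted p of 0.012 and 0.032. Lipe probe set 2, dimmer, gave 0.09 (95% interval -0.37 to 0.55) and 0.07 (-0.39 to 0.53). For the step from trigger to full protocol the 2 probe sets had opposite signs, -0.31 and 0.14 in the ischaemic and -0.27 and 0.31 in the anaesthetic arm.

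G0s2, the inhibitor of triglyceride lipase, was dim in control hearts. Its CTL arrays read 15.2, 8.3, 43.3, 12.4 and 15.3. The IPC_TRI arrays read 48.8, 13.0, 166.4, 29.1 and 106.0, and the APC_TRI arrays 72.3, 6.4, 68.8, 202.1 and 13.8. Both triggers spread from control levels up to those of the ischaemic hearts. The IPC arrays read 255.3, 227.8, 435.9, 271.9 and 240.1. The APC arrays read 314.9, 65.4, 214.8, 169.4 and 187.6, and the ISCH arrays 412.8, 309.6, 121.0, 188.9 and 309.5. All IPC arrays were above all IPC_TRI arrays, whereas the APC arrays at 65.4, 169.4 and 187.6 lay below the highest APC_TRI array, at 202.1.

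G0s2 was higher in IPC than in IPC_TRI hearts by 2.33 ± 0.50 (SE, limma adjusted p = 0.0012) and higher in APC than in APC_TRI hearts by 1.70 ± 0.50 (adjusted p = 0.017). Against CTL it rose by 3.11 ± 0.50 in IPC (adjusted p = 5.8e-05) and by 2.52 ± 0.50 in APC hearts (adjusted p = 0.0010), with no overlap between arrays. These CTL arrays were part of the comparison on which the genes were selected, and G0s2 passed the filter through its high groups. The rise over CTL is therefore not independent of the selection. The triggers stood at 0.78 ± 0.50 and 0.82 ± 0.50 against CTL (adjusted p = 0.28 and 0.30). Without APC_TRI replicate 2 or 5 the difference between APC and APC_TRI hearts was 1.33 (adjusted p = 0.071) or 1.39 (adjusted p = 0.063). At such low signals the size depends on the constant added before the logarithm: with 1 in place of 16 the rise in IPC over CTL hearts was 3.92 and with 64 it was 2.07. The difference between IPC and IPC_TRI hearts was 2.85 and 1.62, and that between APC and APC_TRI hearts 2.29 and 1.08, and all these kept the call. Without the filter on low values the differences from the triggers were called by limma with adjusted p of 0.0020 and 0.026. No detection call was used, so whether G0s2 was above background in CTL, IPC_TRI and APC_TRI hearts was not determined, and these differences are not measured folds.

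The ISCH hearts are described without a test, because the genes were proposed with the comparison of ISCH and CTL known. In that comparison Fabp4 stood at 1.97 ± 0.34 and G0s2 at 2.90 ± 0.50, and they were the 2 members whose arrays did not overlap on the normalized scale, beside 10.2% of all probe sets without overlap and 8.77% called. On the deposited intensities the arrays of Cd36 probe set 1 did not overlap either, with the highest ISCH array at 2191.7 and the lowest CTL array at 2242.6. Cd36 stood at -0.71 ± 0.27 and -0.46 ± 0.32, the 3 Lpl probe sets at -0.26, -0.30 and -0.10 and the Lipe probe sets at 0.42 and 0.43. Fabp3 stood at -0.15 and, as deposited, at 0.16. The spiked bacterial control probe sets were brighter in ISCH hearts, a log2 mean of 12.02 against 10.75 in CTL hearts, and their part in these values was not tested; with that signal in the fit Cd36 probe set 2 stood at 0.09.

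**Figure D2:**
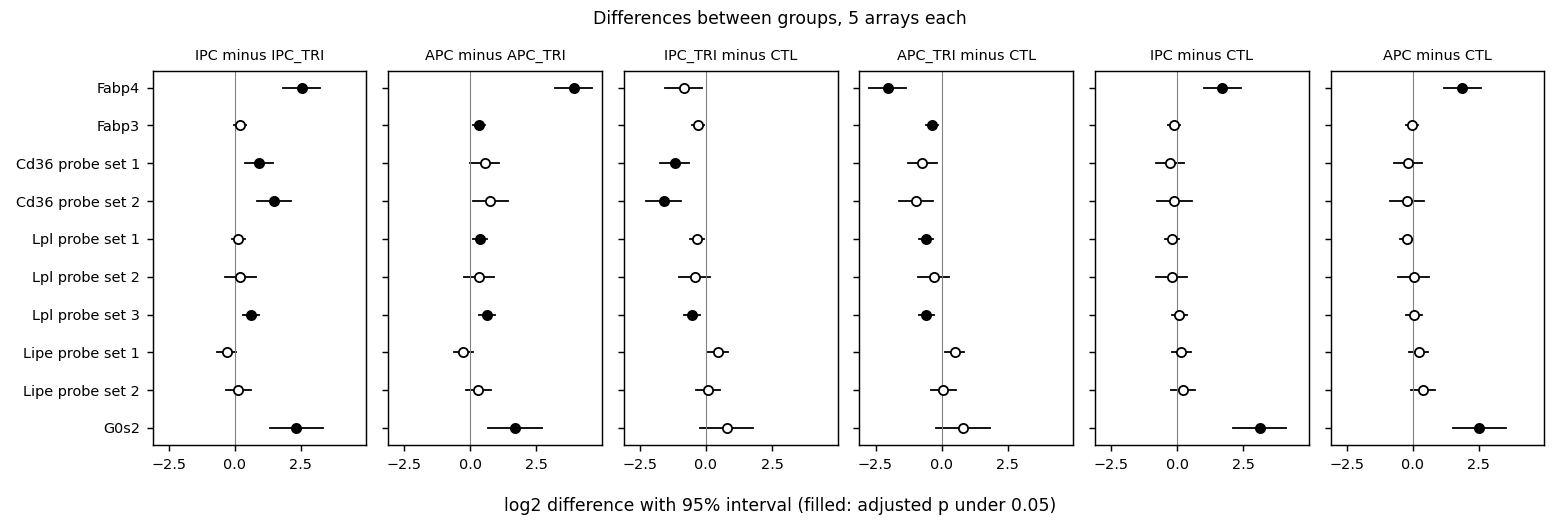
Log2 differences of the 10 probe sets in 6 comparisons with their 95% intervals; filled points have an adjusted p under 0.05 over all 5244 probe sets. Fabp4 and G0s2 are filled on the right in 4 panels, IPC and APC against their triggers and against CTL, while Cd36 is filled in the ischaemic arm alone, a difference between arms that did not pass its own test. The last 4 panels share the CTL arrays.

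Counted over the 10 probe sets, 5 were higher and 0 lower in IPC than in IPC_TRI hearts (Fabp4, G0s2, both for Cd36 and Lpl probe set 3), where 23.4% of all 5244 probe sets were called and 14% called higher. Of all called there 732 were higher and 496 lower; as deposited the split was 598 to 574 and with each array's median centred 1012 to 236. In APC against APC_TRI hearts 5 were higher and 0 lower (Fabp4, G0s2, Fabp3 and Lpl probe sets 1 and 3), against 17.7% called and 9.82% called higher. The median of the 10 was 0.41 and 0.45 in these comparisons, against 0.05 and 0.01 over all probe sets. On the normalized scale 4 of the 10 had no overlap between arrays in the first comparison and 3 in the second, beside 11.7% and 16.6% of all probe sets. G0s2, called in both comparisons, entered the test through its high groups, and the probe sets of Cd36 and of Lpl repeat 1 gene each. The counts are therefore a description and not a test against these shares.

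Against the controls 0 were higher and 3 lower in IPC_TRI hearts, beside 16.6% of all called and 10.1% called lower; 339 were higher and 530 lower, as deposited 381 and 458, and with medians centred 169 and 753. In APC_TRI hearts 0 were higher and 4 lower, beside 8.64% called and 4.92% called lower. In IPC and in APC hearts 2 were higher and 0 lower, beside 3.89% and 3.66% called and 1.87% and 1.37% called higher. Without overlap between arrays were 2 in IPC_TRI, 7 in APC_TRI, 2 in IPC and 2 in APC hearts, beside 9.48%, 13.3%, 6.9% and 7.09% of all probe sets. These 4 comparisons share the CTL arrays with one another and with that of ISCH, on which the genes were selected. G0s2, among those called higher in IPC and in APC hearts, entered the test through its high groups.

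Neither kind of preconditioning set these genes apart from the other or from unprotected ischaemia at this number of arrays. None of the 10 passed between IPC and APC hearts by limma, where 0 of 5244 probe sets were called (0%) and 137 had an unadjusted p under 0.05, and none passed between the triggers (0.439% called). Between IPC and ISCH and between APC and ISCH hearts, which share the ISCH arrays, none passed, with 0.172% and 0.267% of all called. Against ISCH the IPC and APC hearts stood at -0.27 (95% interval -0.97 to 0.43) and -0.10 (-0.81 to 0.60) for Fabp4. For Cd36 probe set 1 they stood at 0.44 (-0.10 to 0.98) and 0.53 (-0.01 to 1.07). For G0s2 they stood at 0.21 (-0.80 to 1.23) and -0.38 (-1.40 to 0.64), a wide interval for both. The steps of both arms differed for no member, with 0.0953% of all called.

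In the order of group means on the normalized scale Fabp4 ran ISCH, APC, IPC, CTL, IPC_TRI, APC_TRI, and IPC and CTL were the only neighbours whose arrays did not overlap. G0s2 ran IPC, ISCH, APC, APC_TRI, IPC_TRI, CTL, and every pair of neighbours overlapped. Cd36 probe set 1 ran CTL, APC, IPC, ISCH, APC_TRI, IPC_TRI, and probe set 2 had IPC before APC; all neighbours overlapped. The Lpl, Lipe and Fabp3 probe sets likewise had overlapping neighbours throughout.

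The genes nearest to Fabp4 over the 30 arrays, by the smallest root mean square difference of centred log2 values, were Hsph1 (0.80), a co-chaperone of the HSP110 family, Jun (0.80), an immediate early transcription factor, and Hspa1a (0.84), an inducible HSP70. Hsph1 averaged 576 in CTL, 573 in IPC_TRI and 425 in APC_TRI hearts and 3380, 2734 and 3208 in ISCH, IPC and APC hearts. Hspa1a averaged 5371 in CTL, 5200 in IPC_TRI and 2093 in APC_TRI hearts, and 23273 in ISCH hearts. For G0s2 they were Dnajb1 (0.77), an HSP40 co-chaperone, Hsph1 (0.90) and Medag (0.90), a gene named for mesenteric estrogen-dependent adipogenesis. For Cd36 they were Hipk3 (0.24), a nuclear protein kinase, Sf1 (0.27), a splicing factor, and Rab1a (0.29), a transport GTPase. Fabp3, Lpl and Lipe varied too little over the arrays (SD of 0.5 or less) for such a ranking.

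**Figure D3:**
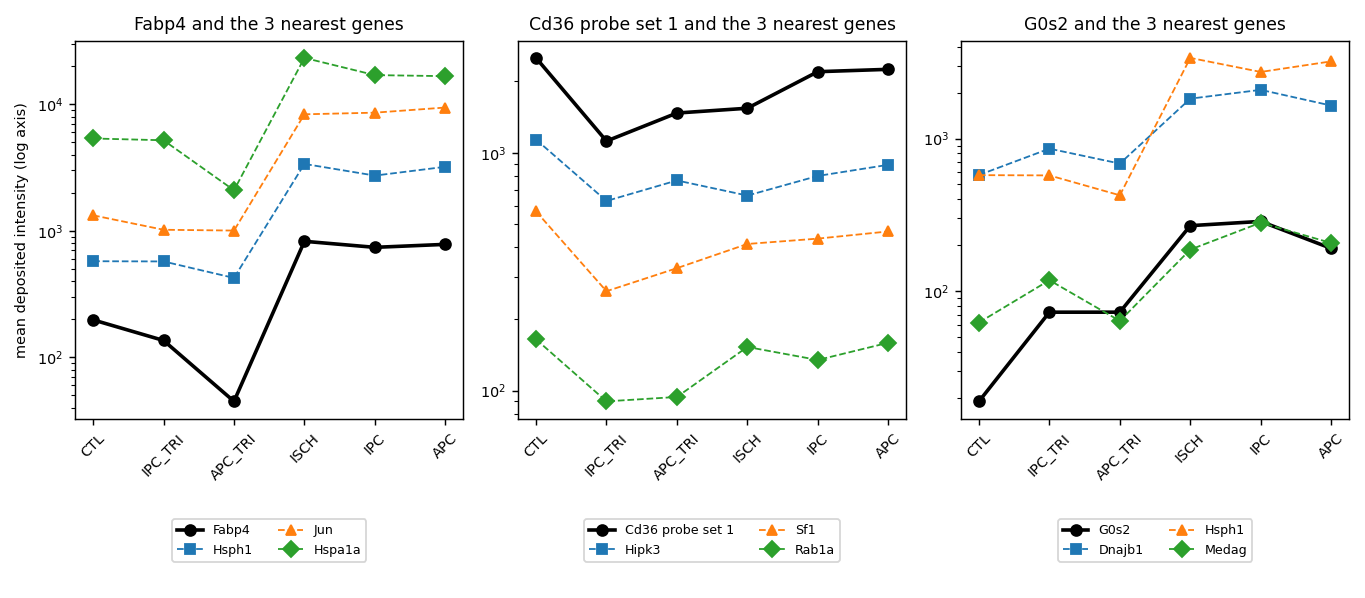
Mean deposited intensity (log axis) by group of Fabp4, Cd36 probe set 1 and G0s2, each with the 3 genes nearest to it over 30 arrays. Hsph1 and Hspa1a share with Fabp4 the lowest mean in APC_TRI and high means in ISCH, IPC and APC hearts, and Hipk3 and Sf1 share with Cd36 the highest mean in CTL and the lowest in IPC_TRI hearts.

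Other genes of lipid handling were read from 5 lists of 108 genes, of which 56 were measured past the filter, at 1 probe set each. In IPC against IPC_TRI hearts 13 were higher and 8 lower, and in APC against APC_TRI hearts 8 were higher and 6 lower. Of all 5244 probe sets 23.4% and 17.7% were called in these comparisons, and 14% and 9.82% called higher. The same shares stand beside the counts of the single lists below. The median of the 56 was 0.12 and 0.00 beside 0.05 and 0.01 over all probe sets. With the beta-actin ratio in the fit 3 and 9 were called. Among those named here, Dbi and Cpt1a kept their calls in both of these comparisons, and Acsl1, Fabp5, Ucp2, Acadvl and Cebpd in the anaesthetic arm, under each of 12 alternative settings and with each array left out. Angptl4, Gpihbp1, Pnpla2 and Abhd5 were not analysed here.

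Of 8 genes of uptake and activation 2 were higher and 2 lower in each arm. Dbi, which binds activated fatty acids, averaged 894 ± 274 (SD, n = 5) in CTL, 299 ± 37.7 in IPC_TRI, 385 ± 76.5 in APC_TRI, 989 ± 133 in IPC and 858 ± 141 in APC hearts. It was higher in IPC than in IPC_TRI hearts by 1.77 ± 0.21 (limma adjusted p = 2.8e-07) and higher in APC than in APC_TRI hearts by 1.15 ± 0.21 (adjusted p = 1.9e-04). Against CTL it was lower in both triggers, by -1.53 ± 0.21 and -1.10 ± 0.21. Acsl1, the main enzyme that activates fatty acids in heart muscle, went the other way: it was lower in APC than in APC_TRI hearts by -0.92 ± 0.14 (adjusted p = 1.3e-05) and higher in APC_TRI than in CTL hearts by 0.58 ± 0.14 (adjusted p = 0.0072). In IPC against IPC_TRI hearts Acsl1 was at -0.43 ± 0.14 (adjusted p = 0.023), a call lost without IPC replicate 1, 3 or 5 or IPC_TRI replicate 5. Cav1, the coat protein of caveolae, was lower by -0.80 ± 0.26 (adjusted p = 0.022) and -0.83 ± 0.26 (adjusted p = 0.023) in the full protocols than in their triggers. Got2, a mitochondrial transaminase also described as a fatty acid binding protein of the plasma membrane, was lower than in CTL by -0.55 in IPC_TRI and -0.50 in APC_TRI hearts.

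Of 3 other binding proteins Fabp5 and Fabp6 passed. Fabp5, the epidermal form also made by endothelium, averaged 318 ± 45.1 in CTL, 462 ± 62.8 in IPC_TRI, 388 ± 91.4 in APC_TRI, 926 ± 250 in ISCH, 837 ± 244 in IPC and 721 ± 107 in APC hearts. It was higher than in CTL hearts by 1.33 ± 0.20 in IPC (limma adjusted p = 3.3e-05) and by 1.15 ± 0.20 in APC hearts (adjusted p = 2.2e-04). In the triggers it was at 0.47 and 0.25 against CTL (adjusted p = 0.11 and 0.45). Fabp6, the ileal bile acid binding protein, was lower by -0.74 and -0.63 in the full protocols than in their triggers. Its probe set averaged 5076 in CTL, 7025 in IPC_TRI, 6777 in APC_TRI, 4468 in IPC and 4469 in APC hearts. Whether it reads Fabp6 in the ventricle was not tested.

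None of the 6 genes around lipoprotein lipase passed in IPC against IPC_TRI hearts, and Sdc4, a heparan sulphate proteoglycan, alone did in APC against APC_TRI hearts (-0.75 ± 0.19, limma adjusted p = 0.0044). Vldlr, the receptor that takes up triglyceride-rich particles, was at 0.25 and 0.22 in these comparisons (adjusted p = 0.47 and 0.55). Of 13 genes of lipolysis and the lipid droplet 4 were higher and 1 lower in the ischaemic arm and 2 higher in the anaesthetic one. Lipa, the lysosomal lipase, was higher in IPC than in IPC_TRI hearts by 0.78 ± 0.21 (adjusted p = 0.0080), and Ces1d, a carboxylesterase, by 1.5 ± 0.38 (adjusted p = 0.0051). Gk, glycerol kinase, was lower by -1.03 (adjusted p = 0.022). In APC over APC_TRI hearts the 2 were Adrb1, the cardiac beta-adrenergic receptor (1.08 ± 0.35, adjusted p = 0.030), and Cidea, a lipid droplet protein (0.70, adjusted p = 0.026). Plin2, which coats droplets in muscle, was higher in IPC_TRI than in CTL hearts by 0.92 ± 0.21 (adjusted p = 0.0047) and at 0.30 in APC_TRI hearts (adjusted p = 0.40). Mgll, which completes lipolysis, was at 0.18 and 0.12 in the steps from trigger to full protocol (adjusted p = 0.64 and 0.78).

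Of 26 PPAR factors and targets 6 were higher and 4 lower in the ischaemic arm and 3 higher and 2 lower in the anaesthetic one. Cpt1a, the liver form of the transferase that admits fatty acids to mitochondria, averaged 119 ± 38.0 in IPC_TRI and 491 ± 70.9 in IPC hearts, a rise of 2.17 ± 0.26 (limma adjusted p = 5.4e-07), and 184 ± 46.3 in APC_TRI and 473 ± 154 in APC hearts, a rise of 1.32 ± 0.26 (adjusted p = 6.0e-04). Cpt1b, the muscle form, was at 0.01 and -0.12 (adjusted p = 0.95 and 0.53). The uncoupling protein Ucp2 was lower in the full protocols by -0.88 ± 0.19 (adjusted p = 0.0012) and -0.79 ± 0.19 (adjusted p = 0.0032), and the factor Cebpd was lower in APC than in APC_TRI hearts by -2.01 ± 0.36 (adjusted p = 1.9e-04). Acadm, the medium-chain dehydrogenase of beta-oxidation, was lower than in CTL by -1.36 ± 0.22 in IPC_TRI (adjusted p = 1.4e-04) and by -0.89 ± 0.22 in APC_TRI hearts (adjusted p = 0.011). Acadvl, the very long-chain dehydrogenase, was lower than in CTL by -0.88 in APC_TRI hearts (adjusted p = 0.0013) and higher in APC than in APC_TRI hearts by 0.86 (adjusted p = 5.3e-04). The receptors themselves did not pass: Ppara was at 0.10 and -0.07 and Pparg at 0.01 and 0.32 in the 2 steps, nor did Pdk4 (-0.07 and -0.21) or Ucp3 (0.56 and 0.72).

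**Figure D4:**
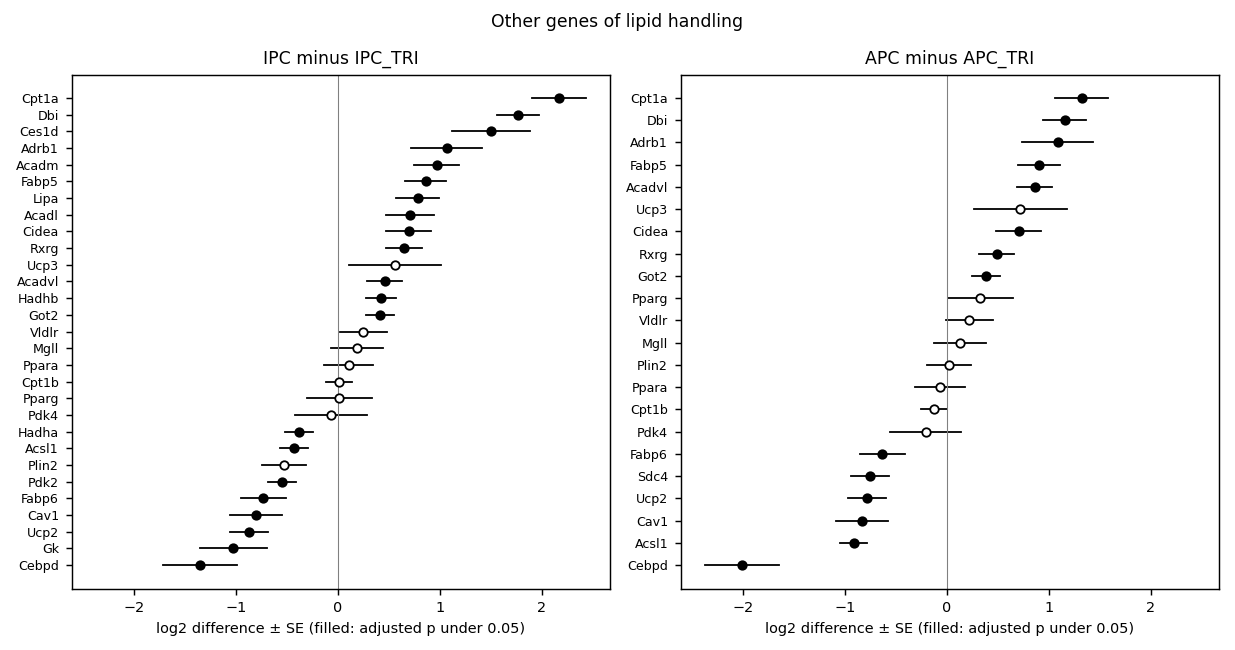
Log2 difference ± SE of the other lipid genes in IPC against IPC_TRI and APC against APC_TRI hearts, for each gene that passed (filled) and those followed in any case by role (open where not past). Cpt1a and Dbi lie at the top and Cebpd at the bottom of both panels, while Ppara, Pparg, Cpt1b, Mgll and Vldlr are open in both.

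Other calls among these genes rested on settings or single arrays. In IPC against IPC_TRI hearts that of Cav1 was lost with medians centred, with only the compared groups and with the beta-actin ratio (adjusted p up to 0.28), and without IPC replicate 2 or 4 or IPC_TRI replicate 1, 3 or 4. In APC against APC_TRI hearts it was lost with medians centred and with the ratio (adjusted p up to 0.076), and without APC replicate 4 or 5 or APC_TRI replicate 1. Without IPC_TRI replicate 5, Lipa stood at 0.47, Ces1d at 0.93 and Acadm at 0.64 in IPC over IPC_TRI hearts, still past the threshold. With the beta-actin ratio these were 0.35 (adjusted p = 0.51), 0.67 (0.46) and 0.47 (0.36), Cebpd there stood at -0.50 (0.58), and the calls of Fabp5 and Ucp2 were lost too (adjusted p = 0.13 for each). The call of Gk was lost without IPC replicate 1 or IPC_TRI replicate 1 or 5, and that of Fabp6 without IPC replicate 2 or 4 or IPC_TRI replicate 5.

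In APC against APC_TRI hearts the call of Fabp6 was lost without any 1 of 12 arrays and under 6 of 12 settings (adjusted p up to 0.20). That of Adrb1 was lost without APC replicate 2, 4 or 5 or APC_TRI replicate 4 or 5, that of Cidea without APC replicate 3 or 4 or APC_TRI replicate 1, 2, 3 or 5, and that of Sdc4 with medians centred (adjusted p = 0.085). Against CTL, Got2 in APC_TRI hearts was not past the threshold without APC_TRI replicate 5, as deposited or with medians centred, Acsl1 and Acadm there with the beta-actin ratio in the fit (adjusted p = 0.066 and 0.11), Adrb1 in IPC hearts without CTL replicate 1 or 3, Cpt1a in IPC hearts without CTL replicate 1, 3 or 5 or IPC replicate 2, 4 or 5, and Cebpd in APC hearts without APC replicate 1. Prkaca between the triggers was not past it without APC_TRI replicate 1 or 4.

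In the triggers against CTL, with the controls shared, 5 of the 56 were higher and 12 lower in IPC_TRI and 2 higher and 4 lower in APC_TRI hearts. Over all probe sets 16.6% and 8.64% were called there. In IPC against CTL 3 were higher, Fabp5, Adrb1 and Cpt1a, and none lower, and in APC against CTL Fabp5 was higher and Sdc4 and Cebpd lower. The shares of all probe sets called were 3.89% and 3.66%. Prkaca, a catalytic subunit of protein kinase A, was the only one of the 56 to pass between the triggers, lower in IPC_TRI hearts by -0.59 ± 0.12 (limma adjusted p = 0.018). In ISCH against CTL, described without a test as for the members, Mgll stood at 1.03 (0.50 with the spike signal in the fit), Pde4b, a phosphodiesterase, at -0.96, Cebpd at -1.81 and the mitochondrial transferase Cpt2 at -0.76. None of the 56 passed between IPC and APC hearts or in either comparison with ISCH.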

How the data were processed

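Each array was put in the group its title names. The deposited values are intensity values on a linear scale, 1 per probe set and array, handled by the maker's standard procedures per the labels; the 2% trimmed means are equal, so the arrays had been scaled. The software is not named. Of 8799 probe sets, 59 Affymetrix controls were left out, and 7006 carry 1 gene symbol in the platform annotation. From the intensities log2(intensity + 16) was taken, arrays were quantile normalized, and probe sets in the bottom 40% by mean were dropped. One limma (3.58.1, R 4.3.3) model with a mean per group was fitted to all 30 arrays, with a trended prior and Benjamini-Hochberg adjustment over 5244 probe sets in each comparison. The steps were tested on simulated data. A list gene was read at its brightest probe set. The members and lists were chosen with earlier results of these data known. Genes of lists are named where they are among the 3 smallest adjusted p-values of a list in a comparison, or by role; genes near a member are the 3 nearest. That number of arrays, 5 a group, limits the precision, and the labels' biological replicates are not said to be separate animals, so p-values measure the spread between these arrays, which may be partly technical. Figures were drawn with matplotlib 3.10.9.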

Additional observations from a re-analysis of the deposited data

Results flagged for a closer look

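In 7 of 60 groups of 5 arrays (10 probe sets in 6 groups) 1 array stood apart from the other 4 by Dixon's criterion for 5 values, 0.71, a share of the range that chance passes in about 1 of 20 groups. For Fabp4 it was ISCH replicate 1 at 585.9, below the others at 813.3 to 927.0 (0.777 of the range), and APC replicate 3 at 1162.9, above the others at 650.9 to 730.4 (0.818). For Lpl probe set 2 it was CTL replicate 3 at 6231.0 (0.875) and IPC replicate 3 at 6336.2 (0.835), both low. For Lpl probe set 3 it was IPC replicate 1 at 9250.7 (0.715), high. For Lipe probe set 1 it was IPC_TRI replicate 5 at 791.0 (0.772), low, and for G0s2 CTL replicate 3 at 43.3 (0.750), high.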

How the results depend on the processing

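Of the 21 member calls 11 held under each of the 12 alternatives and with each array left out, 12 under each alternative, and 0 turned direction. G0s2 was not measured when the lowest 60% of probe sets were left out. 

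Probe sets of the 6 genes called in IPC against IPC_TRI hearts numbered 5, and 3 with only the compared groups in the fit or with the beta-actin ratio; in APC against APC_TRI hearts 5, and 3 without the filter, as deposited or with medians centred (2 to 6 with 1 array left out). In IPC_TRI against CTL hearts they numbered 3, and 5 with the 60% filter, 1 with only the compared groups and 6 without ISCH 1 and IPC_TRI 5 (3 to 5 with 1 left out). In APC_TRI against CTL hearts they numbered 4, and 2 with medians centred and 7 with only the compared groups or with array weights. In IPC and in APC against CTL hearts they numbered 2, and 1 with the 60% filter. Between the triggers 0 to 1 passed with 1 array left out.

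Related lipid genes called in IPC against IPC_TRI hearts numbered 21, and 7 with only the compared groups and 3 with the beta-actin ratio. In APC against APC_TRI hearts they numbered 14, and 9 with that ratio (8 to 15 with 1 left out). In IPC_TRI against CTL they numbered 17, and 8 with only the compared groups and 11 with the ratio. Between the triggers 1 passed, and 0 with the mean over probe sets, only the compared groups or array weights (0 to 1). In IPC against CTL 3, and 5 with array weights and 1 with the ratio (1 to 3). In APC against CTL 3, and 5 with 64 added or as deposited, 6 with only the compared groups, 8 with array weights and 6 without ISCH 1 and IPC_TRI 5 (2 to 5). In IPC against ISCH 0, and 4 with array weights; in APC against ISCH 0, and 1 as deposited, 5 with array weights and 1 without ISCH 1 and IPC_TRI 5 (0 to 1).

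Over all probe sets the calls numbered 1228 in IPC against IPC_TRI (255 to 1336 over the alternatives), 928 in APC against APC_TRI (614 to 1518), 869 in IPC_TRI against CTL (238 to 925), 453 in APC_TRI against CTL (274 to 1065), 460 in ISCH against CTL (157 to 933), 204 in IPC (161 to 398) and 192 in APC against CTL (167 to 383), 23 between the triggers (0 to 93), 9 in IPC (0 to 267) and 14 in APC against ISCH (0 to 203), 0 between IPC and APC (0 to 1) and 5 for the difference of steps (0 to 11). The cause was not tested where a count moved. The fits of only the compared groups held fewer arrays, and the part of that in the counts was not tested either. Centring medians moved the median of all probe sets from 0.05 to 0.19 in IPC against IPC_TRI and from -0.05 to -0.19 in IPC_TRI against CTL hearts.

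The replicate numbers did not pair the arrays: the correlation of deviations over 75 pairs ran from -0.15 to 0.21, 9 were over 0.1, and 7 of 30 arrays were nearest to their own number. With the replicate block Fabp3 in APC against APC_TRI stood at 0.33 with an adjusted p of 0.056, and Fabp4 in IPC_TRI against CTL hearts passed.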
